A study of Populus x canadensis with 12 samples.

Results

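In poplar leaves, 119 of the 41335 genes listed had transcript levels that were high at moderate drought and lower both in watered plants and at severe drought. They were chosen by the measured values of these libraries. On the scale of log2(RPKM + 1), where RPKM is a read count scaled to the length of the gene model and to the reads of the library, a member's mean in moderate drought (D1) had to exceed its mean in the control (C) by at least 1 and its mean in severe drought (D2) by at least 1. In addition the lowest D1 library had to lie above the highest C and the highest D2 library, and the mean in D1 had to reach 5 RPKM. The rise to D1 and the fall to D2 are therefore described below and not tested.

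The RNA came from leaves of 12 single greenhouse plants, rooted cuttings of 2 hybrids, numbered 85 and 89, from a female Populus deltoides crossed with a male Populus nigra (Populus x canadensis). Each stage held 2 plants of each hybrid: C plants were watered normally, and D1 and D2 plants had watering suspended. Watering stopped for 8 or 13 days, and the labels do not say which of these is D1 or D2, and they give no harvest day, so drought and time cannot be told apart. Every plant has its own clone number in the labels, and whether the plants of a hybrid share a genotype is not stated there. Only 2 hybrids were sampled, and the same 4 control plants serve both drought stages.

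When soil dries, leaves close their stomata under the control of the hormone abscisic acid, photosynthesis falls, and cells make protective proteins and solutes. Some drought-responsive transcripts accumulate for as long as water is short, whereas others rise early and decline again as the stress deepens. The deposited table does not pair its IDs with gene names, so no member could be assigned to a pathway, and the labelled tissue could not be checked against leaf markers. IDs are given as deposited, and chromosome numbers are read from the IDs.

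Of the 41335 genes, 24117 reached 1 RPKM in at least 4 libraries and were tested. All 119 members were among them, 0.493% of the genes tested, and 112 would have passed on their C or D2 libraries alone. Library totals, recovered from the steps of the RPKM values, ran from 2259634 to 10509089 reads. At the median coding length of the tested genes, 1107 bp, a count of 3 reads is worth 0.258 RPKM in the deepest library (replicate 1 of hybrid 85 in C), and in the shallowest (replicate 1 of hybrid 85 in D2) it is worth 1.20 RPKM. Such floors cover counting error only. Replicate 1 of hybrid 89 in D2 stood apart from the other D2 libraries in the members, as given below. Members had a median coding length of 951 bp, with a range of 189 to 3681 bp.

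Members ranged from 5.05 to 3559.8 RPKM in their D1 means. The mean in D1 was 30.02 RPKM for the median member, against 9.61 RPKM in C and 7.22 RPKM in D2. For comparison, the median tested gene had 7.72 RPKM in C, 8.71 in D1 and 8.28 in D2. In D1, 18 members had a mean of 5 to 10 RPKM, 69 of 10 to 100 RPKM, 29 of 100 to 1000 RPKM, and 3 above that. The ratio of the D1 mean to the C mean had a median of 3.14 and a highest value of 55.3, and the ratio of the D1 mean to the D2 mean had a median of 4.01. In 80 of the 119 members the D1 mean lay farther from D2 than from C on the log2 scale. The smaller of the differences from C and D2 was at least 1.5 in 55 members, at least 2 in 28 and at least 3 in 5. Since these are levels of bulk leaf RNA, fewer cells that express a gene and less of its RNA per cell cannot be told apart.

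**Figure D1:**
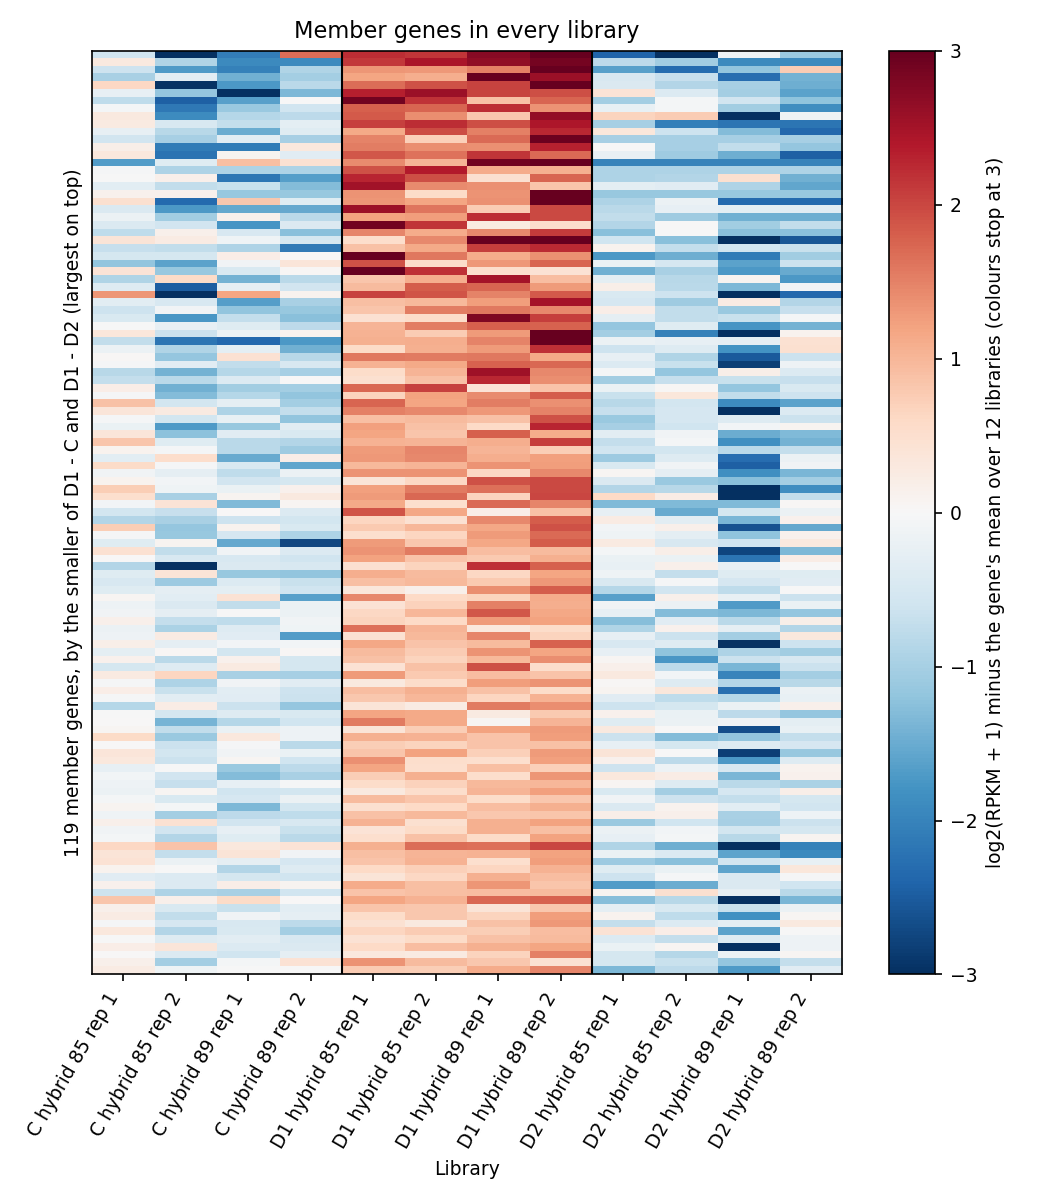
Each row is 1 of the 119 members, ordered by the smaller of its D1 minus C and D1 minus D2 differences, and each column is 1 library. Colour gives log2(RPKM + 1) minus the gene's mean over the 12 libraries, cut at 3 in either direction. The 4 D1 columns are high in every row, as the rule requires, and replicate 1 of hybrid 89 in D2 is the lowest of the 12 libraries in 46 rows.

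The members that lead by the smaller difference are described first, with their values by plant or by range. Potri.004G051500.1 (chromosome number 4, coding length 486 bp) was first. In D1 it had 156 and 150.5 RPKM in hybrid 85 and 227 and 511 RPKM in hybrid 89. In C it had 21.3 and 2.33 RPKM in hybrid 85 and 7.04 and 108 RPKM in hybrid 89, so the controls spread widely and the second hybrid 89 control came close to the D1 plants. In D2 the values were 5.46 and 3.22 RPKM in hybrid 85 and 30.7 and 14.7 RPKM in hybrid 89. The log2 differences of D1 from C and from D2 were 3.85 and 4.41.

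Potri.008G210400.1 (chromosome number 8, 369 bp) was nearly silent outside D1. Its D1 values were 15.3 and 19.5 RPKM in hybrid 85 and 22.9 and 26.8 RPKM in hybrid 89. In C it had 3.61 and 1.02 RPKM in hybrid 85 and 0 and 0 RPKM in hybrid 89, and in D2 1.20 and 0.847 RPKM in hybrid 85 and 0 and 0 RPKM in hybrid 89. Both hybrid 89 plants were listed at 0 in both of these stages, whereas the hybrid 85 plants had low values. Those low values rest on 15 reads in the 4 C libraries together and 2 in D2, so they are imprecise and do not set the hybrids apart. Potri.005G096000.1 (chromosome number 5, 273 bp) had the same form at a lower level, with 4.60 and 2.29 RPKM in hybrid 85 and 5.46 and 14.4 RPKM in hybrid 89 in D1. Its C values were 0 to 0.597 RPKM and it was listed at 0 in all 4 D2 libraries, but these values rest on 31 reads in the 4 D1 libraries together and 2 in C.

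In other leading members the D1 plants differed among themselves. Potri.012G022400.1 (chromosome number 12, 717 bp) had 11.4 and 11.3 RPKM in hybrid 85 and 13.2 and 222 RPKM in hybrid 89 in D1. One plant therefore sets its mean of 64.4 ± 105 RPKM (SD, n = 4) and its ratio to C of 55.3, the largest among members. Its C values were 0.227 to 2.26 RPKM and its D2 values 0 to 7.45 RPKM. The latter were highest in the second hybrid 89 plant of D2, a different plant from the high one of D1. In Potri.018G111000.1 (chromosome number 18, 1503 bp) the hybrids stood apart, with 13.4 and 12.5 RPKM in hybrid 85 and 86.3 and 36.1 RPKM in hybrid 89 in D1. No C or D2 library passed 4.02 RPKM.

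The next members were raised more evenly. Potri.010G046400.1 (chromosome number 10, 651 bp) had 38.6 and 45.6 RPKM in hybrid 85 and 49.6 and 97.9 RPKM in hybrid 89 in D1. Its C values were 18.1 and 0.580 RPKM in hybrid 85 and 2.75 and 6.06 RPKM in hybrid 89, highest in the deepest library, and its D2 values 3.52 to 8.16 RPKM. Potri.001G066400.1 (chromosome number 1, 399 bp) was the second most abundant member, with 1679 and 1987 RPKM in hybrid 85 and 1356 and 1288 RPKM in hybrid 89 in D1. Its controls held 283 and 149.6 RPKM in hybrid 85 and 28.99 and 132 RPKM in hybrid 89, and its D2 plants 441 and 251 RPKM in hybrid 85 and 163 and 109 RPKM in hybrid 89. The nearest library outside D1 was the first hybrid 85 plant of D2.

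Potri.010G129200.1 (chromosome number 10, 1206 bp) had its higher D1 values in hybrid 85, with 52.6 and 31.6 RPKM in hybrid 85 and 12.4 and 23.4 RPKM in hybrid 89. Its range was 0.313 to 6.22 RPKM in C and 2.11 to 5.96 RPKM in D2. Potri.005G113100.1 (chromosome number 5, 501 bp) ran from 113 to 204 RPKM in D1, 9.05 to 41.4 RPKM in C and 11.2 to 41.8 RPKM in D2, so C and D2 overlapped over most of their range. Potri.019G117300.1 (chromosome number 19, 402 bp) ran from 10.2 to 23.6 RPKM in D1, 0.810 to 3.31 RPKM in C and 0 to 5.50 RPKM in D2, and it is described again with its neighbours.

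Potri.004G138400.1 (chromosome number 4, 1563 bp) had the D1 values with the smallest spread for their level among the 12 leading members, 157 and 176 RPKM in hybrid 85 and 143 and 204 RPKM in hybrid 89. Its C values were 44.7 and 26.1 RPKM in hybrid 85 and 21.99 and 29.8 RPKM in hybrid 89. Its D2 values were 17.8 and 8.20 RPKM in hybrid 85 and 7.36 and 7.32 RPKM in hybrid 89, all below every control.

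**Figure D2:**
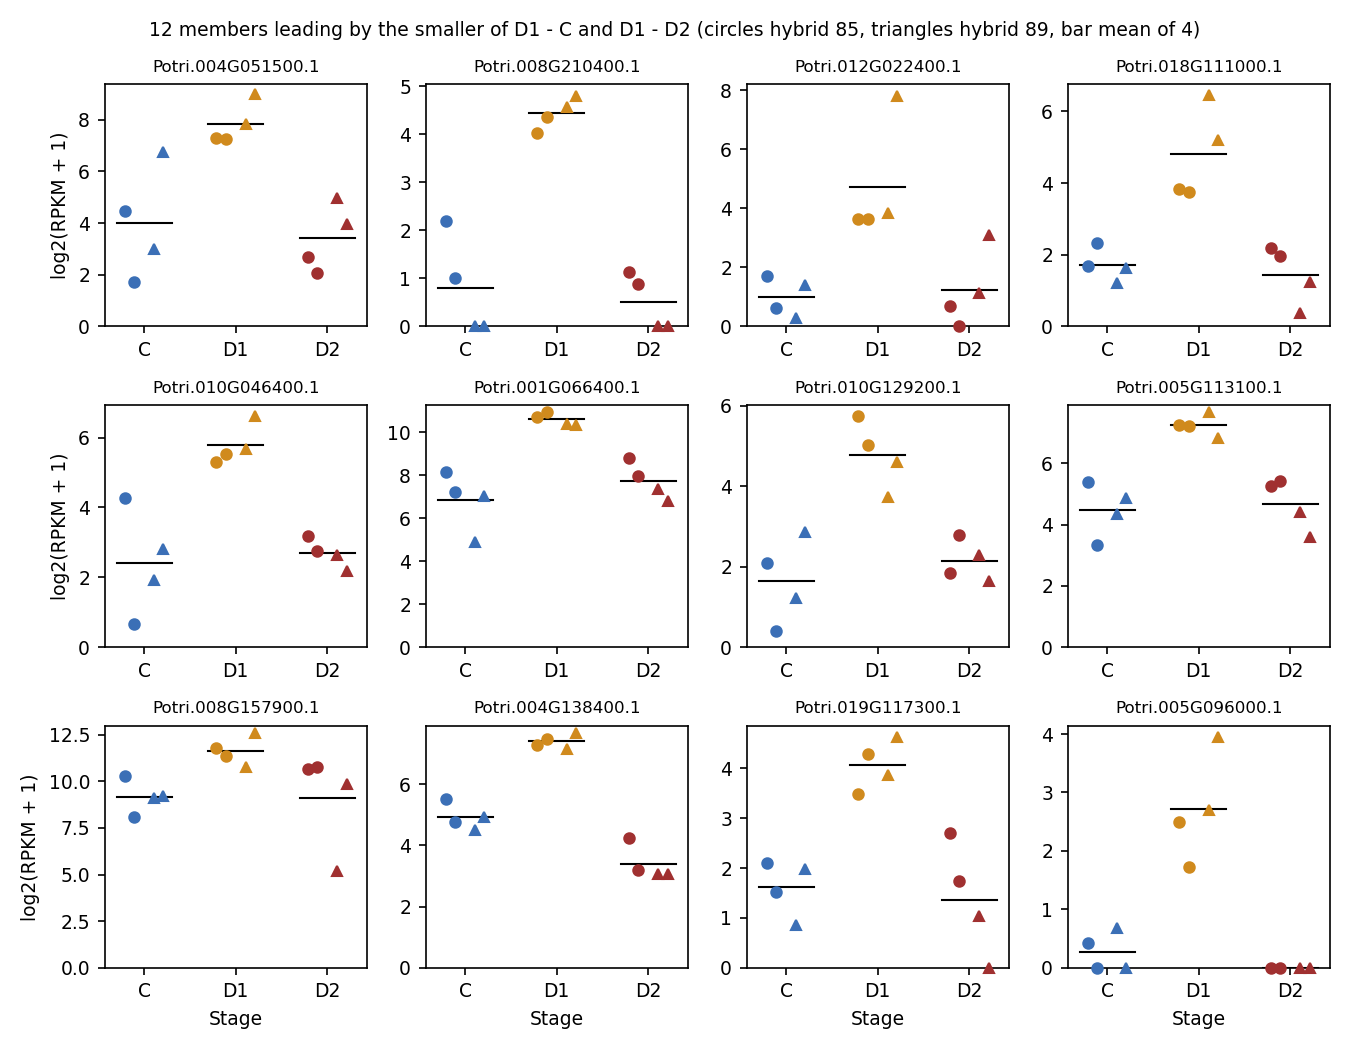
Each panel is 1 of the 12 members with the largest smaller difference, and the vertical axis gives log2(RPKM + 1) on a scale of its own. Each point is 1 library by stage (circles for hybrid 85, triangles for hybrid 89) and each bar is the mean of 4. In Potri.012G022400.1 a single D1 plant lies far above the other 3, and in Potri.008G157900.1 a single D2 plant lies far below.

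Of the 6 members with the highest D1 means, Potri.001G066400.1 and Potri.008G157900.1 are also among the 12 leading members, and the other 4 were raised by less. Potri.008G157900.1 (chromosome number 8, 549 bp) had 3587 and 2663 RPKM in hybrid 85 and 1772 and 6217 RPKM in hybrid 89 in D1. The controls had 1241 and 272 RPKM in hybrid 85 and 553 and 584 RPKM in hybrid 89. In D2 it had 1602 and 1716 RPKM in hybrid 85 and 35.7 and 921 RPKM in hybrid 89, with 1 plant far below the others. Potri.009G094100.1 (chromosome number 9, 1593 bp) had 971 and 1338 RPKM in hybrid 85 and 636 and 1608 RPKM in hybrid 89 in D1, 203 to 575 RPKM in C, and 605 and 469.9 RPKM in hybrid 85 and 7.22 and 241 RPKM in hybrid 89 in D2. In both genes the low D2 library was replicate 1 of hybrid 89.

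Potri.009G111600.1 (chromosome number 9, 1383 bp) had 705 and 703 RPKM in hybrid 85 and 914 and 1155 RPKM in hybrid 89 in D1. Its controls had 493 and 382 RPKM in hybrid 85 and 412 and 418 RPKM in hybrid 89, and its D2 plants 127 to 333 RPKM. The controls of this gene spread little, and it fell to D2 by more than it had risen. Potri.005G251000.1 (chromosome number 5, 2586 bp) had 418 to 602 RPKM in D1, 113 to 181 RPKM in C and 171 to 235 RPKM in D2. Potri.006G265400.1 (chromosome number 6, 699 bp) had 449.6 to 608 RPKM in D1, 215 to 382 RPKM in C and 214 to 302 RPKM in D2.

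The rule has sharp edges. The members nearest above the threshold on the smaller difference were Potri.009G111600.1, with 1.0004, Potri.004G014200.1 and Potri.005G182600.1, both with 1.01. The means of Potri.004G014200.1 were 5.49 ± 1.68 RPKM in D1 against 2.35 ± 1.23 in C, and those of Potri.005G182600.1 18.3 ± 8.61 against 8.06 ± 1.61 RPKM (SD, n = 4). The nearest genes below it, which met every other condition, were Potri.015G074700.1, Potri.016G099700.1 and Potri.001G385200.1, with D1 minus C differences of 0.999, 0.999 and 0.998. Their D1 means of 51.7 ± 12.5, 14.5 ± 2.80 and 20.8 ± 4.37 RPKM (SD, n = 4) lie within the range of the members. A further 229 genes met the differences and the level but had overlapping libraries, and 303 met the separation and the level but not the differences. In 12 members the lowest D1 library held fewer than 10 reads, the lowest of all 2, and the median over members was 80 reads.

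Within stages, some plants carried more of these transcripts than others. Members held 1.27% to 1.97% of the reads of a D1 library, 0.338% to 0.605% in C and 0.208% to 0.529% in D2. The second hybrid 89 plant was the highest of the 4 D1 libraries in 61 members, 51.3% of them, against 26.5% of all genes tested. The deepest library, replicate 1 of hybrid 85, was the highest of the 4 controls in 75 members, 63.0% against 32.7%. In D2, replicate 1 of hybrid 89 was the lowest of the 4 in 63 members, 52.9% against 34.3%, and the lowest of all 12 libraries in 46, 38.7% against 20.3%. It had 0 reads in 16 members, where the other D2 libraries had 0 reads in 6 to 8. The part of these libraries in the results was not tested beyond leaving each out in turn.

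At severe drought 100 of the 119 members lay within 1 of their control level on the log2 scale, and nearly all of those called were lower than in C. The rule treats C and D2 alike, so it does not set the sign of this comparison. It does bound the size of the change, which can lower the share called and favour values near 0. The comparison also shares its control and D2 libraries with the choice of members. With limma at an adjusted p below 0.05, 14 members were lower and 1 was higher in D2 than in C. That makes 12.6% of members, against 40.8% of all genes tested (19.2% lower and 21.6% higher). The median log2 change was -0.21 over members and 0.07 over all genes tested, with 80 members below 0 and 39 above. The 100 members within 1 of 0 are 84.0%, where 64.3% of all genes tested lay in that range. Many members are low outside D1, and among the 81 members with at least 5 RPKM in C or D2 17.3% were called, against 49.7% of the tested genes at that level. The values of D2 and C did not overlap in 11 members that were lower and 2 that were higher, against 17.5% and 19.3% of all genes. Without replicate 1 of hybrid 89 in C, 9 members were called, all lower, and without replicate 1 of hybrid 89 in D2, 8 were lower and 5 higher. Of all genes tested, 35.2% and 37.3% were called in these fits.

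The largest fall was in Potri.013G027100.1 (chromosome number 13, 936 bp). Its control plants had 27.6 and 32.7 RPKM in hybrid 85 and 22.3 and 23.6 RPKM in hybrid 89, and its D1 plants 37.6 to 73.8 RPKM. In D2 the values fell to 8.98 and 5.68 RPKM in hybrid 85 and 0 and 3.53 RPKM in hybrid 89. Every D2 plant lay below every control, and from C to D2 it changed by -2.71 ± 0.50 on the log2 scale (SE, limma adjusted p = 0.000936). Potri.014G111400.1 (chromosome number 14, 1686 bp) went from 23.7 and 14.6 RPKM in hybrid 85 and 19.9 and 13.1 RPKM in hybrid 89 in C to 4.72 and 6.86 RPKM in hybrid 85 and 0 and 4.38 RPKM in hybrid 89 in D2. The groups did not overlap, and the fall measured -2.22 ± 0.51 on the log2 scale (SE, adjusted p = 0.00374 by limma).

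Potri.003G146800.1 (chromosome number 3, 1596 bp) was called both in D2 against C and between the hybrids within D1. Controls had 24.3 and 21.8 RPKM in hybrid 85 and 16.4 and 12.4 RPKM in hybrid 89. Under moderate drought the values were 26.6 and 51.5 RPKM in hybrid 85 and 162 and 187 RPKM in hybrid 89, and under severe drought 11.6 and 7.05 RPKM in hybrid 85 and 0.267 and 2.23 RPKM in hybrid 89. In these plants the rise was thus mostly in hybrid 89, whereas both hybrids were below their controls in D2. The difference between the hybrids in its rise was not called (limma interaction contrast, adjusted p = 0.104). Its log2 change from C to D2 was -2.08 ± 0.71 (SE, limma adjusted p = 0.0313). That call was lost, at adjusted p from 0.0636 to 0.0933, when any 1 of 5 libraries was left out: either hybrid 85 control, the first hybrid 89 control, or either hybrid 89 plant of D2.

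Potri.004G138400.1, shown above, fell from 30.7 ± 9.92 to 10.2 ± 5.12 RPKM (SD, n = 4). On the log2 scale that change was -1.55 ± 0.27 (SE, adjusted p = 0.000654 by limma). Potri.009G111600.1 fell from 426 ± 47.1 to 217 ± 91.4 RPKM (limma adjusted p = 0.0146). Potri.016G104300.1 (chromosome number 16, 351 bp) was listed at 0 in all 4 D2 libraries, after 0.271 and 2.15 RPKM in hybrid 85 and 6.50 and 4.50 RPKM in hybrid 89 in C (limma adjusted p = 0.00399). Its C values rest on 21 reads in the 4 libraries together, and limma-voom on the recovered reads gave an adjusted p of 0.0290. The other 8 members called lower had log2 changes of -1.86 to -0.67.

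Potri.001G289700.1 (chromosome number 1, 1872 bp) was the only member called higher in D2 than in C, so it was not raised at moderate drought alone. Its control values were 18.4 and 6.05 RPKM in hybrid 85 and 5.31 and 8.64 RPKM in hybrid 89. In D1 they were 65.8 and 66.8 RPKM in hybrid 85 and 89.1 and 388 RPKM in hybrid 89, and in D2 27.4 and 25.9 RPKM in hybrid 85 and 25.7 and 42.8 RPKM in hybrid 89. All 4 D2 plants lay above all controls and below all D1 plants, and its log2 change from C to D2 was 1.69 ± 0.50 (SE, limma adjusted p = 0.0167). Without the first hybrid 89 control the adjusted p was 0.0606. Potri.018G058600.1 (chromosome number 18, 1155 bp) also had every D2 plant, at 109 to 144 RPKM, above every control, at 14.7 to 96.0 RPKM. Its log2 change from C to D2 was 1.13 ± 0.43 and was not called (SE, limma adjusted p = 0.0517).

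**Figure D3:**
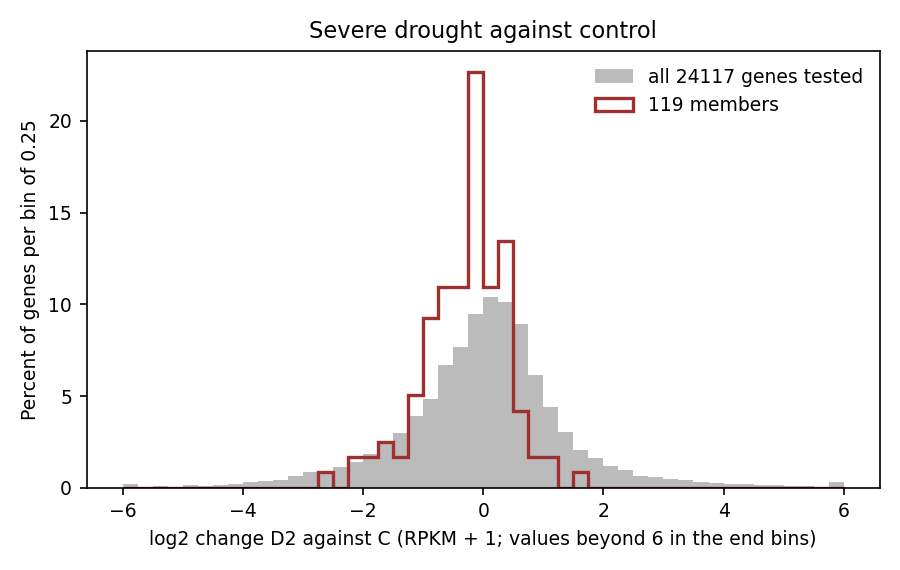
The horizontal axis gives the log2 change from C to D2 on the log2(RPKM + 1) scale and the vertical axis the percent of genes in bins of 0.25. The filled bars are the 24117 genes tested and the outline is the 119 members. Members gather within 1 of 0, with a tail toward lower values in D2 that reaches -2.71 and a single call on the other side at 1.69.

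Over all stages, no member was called between hybrid 89 and hybrid 85 (limma, adjusted p below 0.05), where 2.94% of all genes tested were. At an unadjusted p below 0.05 there were 15 members, 12.6% against 18.0% of all genes tested. Limma-voom on the recovered reads called 2 members and 3.97% of all genes. Because the rule needs every D1 plant above every other plant, it limits how far the hybrids can differ. Potri.007G110100.1 (chromosome number 7, 813 bp) had the smallest p. Its controls had 3.75 and 5.11 RPKM in hybrid 85 and 1.002 and 0.971 RPKM in hybrid 89. In D1 its values were 8.50 and 5.77 RPKM in hybrid 85 and 6.42 and 6.09 RPKM in hybrid 89, and in D2 3.81 and 2.69 RPKM in hybrid 85 and 0 and 0.939 RPKM in hybrid 89. The hybrids overlapped in D1 alone, and the log2 difference of hybrid 89 from hybrid 85 was -1.06 ± 0.29 (SE, limma adjusted p = 0.0729). The next in order were Potri.016G104300.1, higher in hybrid 89 by 1.20 on the log2 scale (limma adjusted p = 0.0872), Potri.001G066400.1, with a log2 difference of -1.16 (limma adjusted p = 0.106), and Potri.007G019600.1, with -1.06 (limma adjusted p = 0.123).

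Within D1 alone, 8 members were called between the hybrids, 6 higher and 2 lower in hybrid 89. That is 6.72% of members, near the 7.5% of all genes tested that were called (4% higher and 3.5% lower). With 2 plants a hybrid these calls depended on single libraries: 0 were made without replicate 1 of hybrid 85 in D1, 2 without its replicate 2, 2 without replicate 1 of hybrid 89 and 1 without its replicate 2. The share of all genes called fell as well, to 1.04%, 2.80%, 1.503% and 2.78% in these fits, in that order. In those fits the lone plant is assumed to vary like the other groups. Potri.005G106400.1 (chromosome number 5, 732 bp) had the smallest p, with 235 and 278 RPKM in hybrid 85 and 682 and 716 RPKM in hybrid 89 in D1. Its controls had 122 to 194 RPKM and its D2 plants 75.6 to 133 RPKM, and the log2 difference of hybrid 89 from 85 in D1 was 1.45 ± 0.28 (SE, limma adjusted p = 0.0136).

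The other members called higher in hybrid 89 within D1 were Potri.003G146800.1, Potri.018G111000.1 and Potri.016G104300.1, which had 9.85 and 7.12 RPKM in hybrid 85 and 29.04 and 41.7 RPKM in hybrid 89 in D1, with Potri.002G196700.1 and Potri.012G079700.1. Potri.002G196700.1 (chromosome number 2, 540 bp) had 165 and 174 RPKM in hybrid 85 and 839 and 505 RPKM in hybrid 89 in D1 and 34.97 to 86.5 RPKM in C. Potri.012G079700.1 (chromosome number 12, 1947 bp) had 18.1 and 15.7 RPKM in hybrid 85 and 38.6 and 52.1 RPKM in hybrid 89 in D1 and 8.92 to 11.4 RPKM in C. Over all genes tested, 64.6% had the larger D1 minus C difference in hybrid 89. All 6 members called higher in hybrid 89 within D1 had it too, which their choice by D1 level favours. The pair that ran the other way was Potri.018G024200.1 (chromosome number 18, 1692 bp), with 50.2 and 17.9 RPKM in hybrid 85 and 4.996 and 4.63 RPKM in hybrid 89 in D1, and Potri.007G019600.1 (chromosome number 7, 1506 bp), with 40.7 and 23.7 RPKM in hybrid 85 and 5.78 and 6.99 RPKM in hybrid 89 in D1. Limma's adjusted p for these 7 ran from 0.0172 to 0.0286.

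The rise from C to D1 was larger in hybrid 89 for 88 members and larger in hybrid 85 for 31. Most genes had the same tendency: 74.0% of members and 64.6% of all genes tested had the larger D1 minus C difference in hybrid 89. With quantile normalization the shares were 65.5% and 50.8%, and with median-ratio scaling 60.5% and 50.7%. The median member rose by 1.27 in hybrid 85 and 1.82 in hybrid 89 on the log2 scale, where all genes tested had medians of -0.01 and 0.26. Both D1 plants of hybrid 89 exceeded both of hybrid 85 in 54 members, 45.4% against 35.4% of all genes, and the reverse held in 22, 18.5% against 25.4%. No member's rise was called different between the hybrids by limma's interaction contrast, and none of the genes tested was, 0%. At an unadjusted p below 0.05 there were 22 members, 18.5% against 16.8% of all genes tested, and limma-voom called 0. The smallest adjusted p were those of Potri.005G106400.1 at 0.0875, Potri.003G146800.1 at 0.104 and Potri.018G111000.1 at 0.129, and each had risen more in hybrid 89, by 2.00, 2.85 and 2.62 on the log2 scale.

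**Figure D4:**
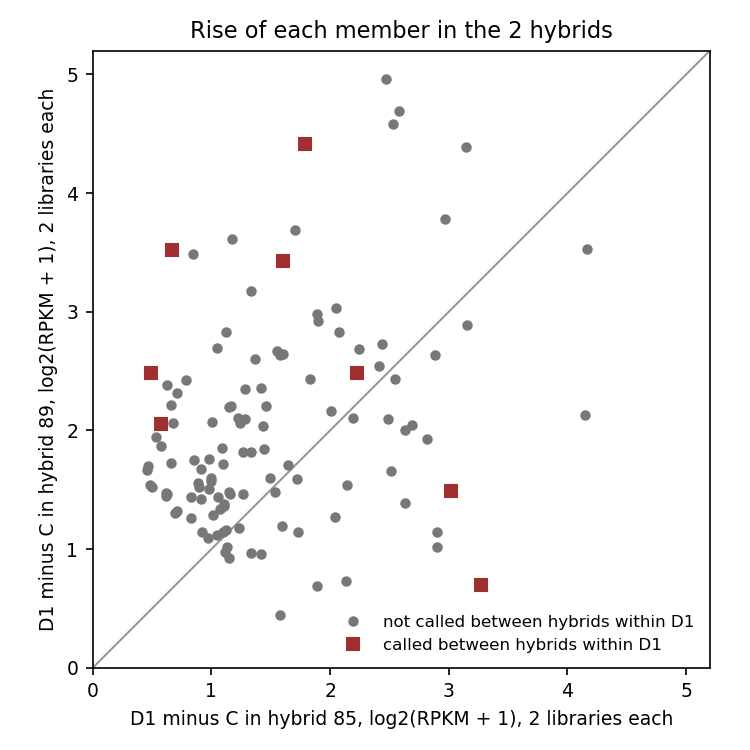
Each point is 1 of the 119 members, by its D1 minus C difference on the log2(RPKM + 1) scale in hybrid 85 (horizontal) and hybrid 89 (vertical), from 2 libraries a stage in each hybrid. The line marks equal differences and squares mark the 8 members called between the hybrids within D1. Above the line lie 88 members, and all lie above 0 on both axes.

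To read the pattern in plants that did not choose the genes, the same rule was applied to the 6 libraries of one hybrid and its genes were read in the other. Hybrid 85 alone chose 552 genes. In hybrid 89, 80 of these, 14.5%, had D1 above both C and D2 by at least 1, against 4.60% of all genes tested and 4.03% of the 14666 tested genes that had at least 5 RPKM in D1 of hybrid 85. Hybrid 89 alone chose 785 genes, of which 77, 9.81%, had both differences in hybrid 85, against 3.01% of all genes tested and 2.09% of the 15608 tested genes at that level. Members made up 70 of the 552 genes and 107 of the 785, so most of the genes chosen are no members. The genes that also had both differences in the other hybrid are mostly members, since such genes come close to the rule over all 12 libraries. The full rule was met within each hybrid separately by 69 genes. These are 12.5% of the genes chosen in hybrid 85 and 8.79% of those chosen in hybrid 89. Of all genes tested, 3.25% met it in hybrid 89 and 2.29% in hybrid 85. Most genes chosen in one hybrid therefore did not reach both differences in the other. The hybrids were grown, treated and measured in the same study, so what their libraries share goes beyond the stage.

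Some members lie next to each other in the order of IDs along a chromosome. There were 4 pairs of adjacent IDs, and 11 pairs of successive members, 18 genes in all, at most 10 rows of the table apart. Potri.007G145600.1 (651 bp) had 21.2 to 34.9 RPKM in D1, 7.54 to 14.03 in C and 7.85 to 15.6 in D2, and its neighbour Potri.007G145700.1 (1068 bp) had 42.8 to 56.98 RPKM in D1, 17.00 to 26.5 in C and 14.4 to 23.1 in D2. In both genes the C and D2 libraries overlapped. Potri.010G046300.1 (1773 bp) had 69.8 to 106 RPKM in D1, 33.8 to 59.01 in C and 4.08 to 47.6 in D2, a smaller rise than that of its neighbour Potri.010G046400.1 described above.

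The other adjacent pairs belong to a run of members on chromosome number 19, which holds 8 members among 665 tested genes, 1.20% against 0.493% over all chromosomes. From Potri.019G116300.1 to Potri.019G117400.1 the table lists 12 IDs, of which 10 were tested and 6 are members. The rule sets the order of the stages in the members. The 4 tested genes of the run that are no members also had a D1 mean above their C and D2 means. The same held for 34.1% of all genes tested. It held for the nearest tested genes before the run, Potri.019G116100.1 and Potri.019G116000.1, with D1 means of 6.23 and 9.72 RPKM. It did not hold for the nearest after the run, Potri.019G117900.1. Of the 4 in the run, Potri.019G117000.1 and Potri.019G117200.1 passed the filter only with their D1 libraries, so the filter favoured that order in them. Their 4 D1 libraries together gave 15 and 11 reads. Potri.019G116300.1 (270 bp) was the most abundant, with 221 and 228 RPKM in hybrid 85 and 446 and 379 RPKM in hybrid 89 in D1. Controls had 84.6 and 46.2 RPKM in hybrid 85 and 104 and 54.1 RPKM in hybrid 89, and D2 plants 57.4 and 45.1 RPKM in hybrid 85 and 34.7 and 33.9 RPKM in hybrid 89. Potri.019G116700.1 (189 bp) had 56.5 and 67.8 RPKM in hybrid 85 and 133 and 148 RPKM in hybrid 89 in D1, 6.26 to 18.6 in C and 18.2 to 32.8 in D2. In both, each hybrid 89 plant of D1 exceeded each hybrid 85 plant.

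Lower in the same run, Potri.019G116600.1 (270 bp) had 4.66 and 2.32 RPKM in hybrid 85 and 4.60 and 21.4 RPKM in hybrid 89 in D1, 0 to 1.41 in C, and was listed at 0 in all D2 libraries. Potri.019G117400.1 (273 bp) had 11.5 and 10.3 RPKM in hybrid 85 and 10.02 and 20.4 RPKM in hybrid 89 in D1, 0 to 4.34 in C and 0.932 to 3.24 in D2. These low members rest on few reads: the 4 D1 libraries together gave 39 reads for the former, 57 for the latter and 31 for Potri.019G116900.1. Of the tested genes that are no members, Potri.019G116800.1 (270 bp) had a D1 mean of 119.8 RPKM against 51.3 in C and 32.7 in D2, but a D1 and a C library overlapped. In 9 of the 10 tested genes the coding length was 189 to 303 bp, and the lengths of several are equal. Whether these genes are similar in sequence was not examined, and how the authors' counting treated reads with several matches is not given in the sources used here. None of the 6 members was called in D2 against C by limma, where 40.8% of all genes tested were, and the smallest adjusted p was 0.093 for Potri.019G116300.1. With so few reads, a call was hardly possible in the low members.

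**Figure D5:**
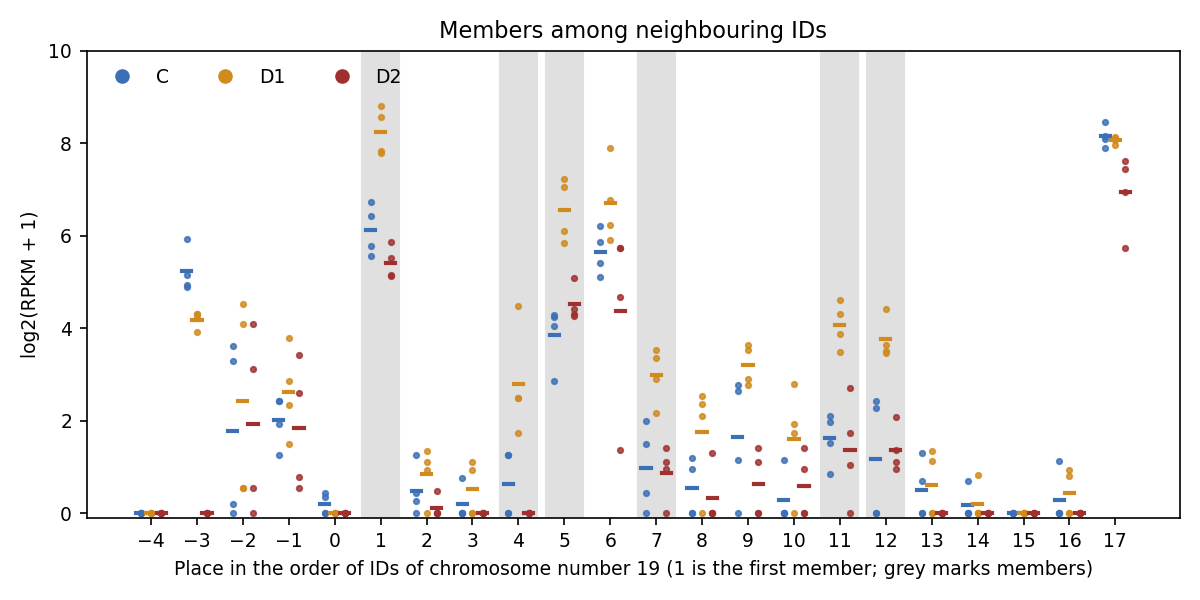
The horizontal axis gives the place of each ID in the order of the table on chromosome number 19, with 1 for Potri.019G116300.1 and 12 for Potri.019G117400.1. The vertical axis gives log2(RPKM + 1) for each of the 12 libraries (points) with the stage means (bars), and grey bands mark the 6 members. From places 1 to 12 the D1 mean lies above the C and D2 means, as it also does at the tested places -2 and -1, but not at -3 or 17.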

How the data were processed

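Per the file headers, the authors deposited 1 RPKM value per gene and library. The submitters' processing notes name Trimmomatic 0.32. What aligned and counted the reads, whether strand was used, how reads with several matches were treated, and the build and gene models are not given in the sources used. Stage means, in 3 other columns, were left out. The members and lists were chosen with earlier results of these data known.

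Columns were matched to samples by hybrid and clone number. Values of log2(RPKM + 1) were tested with limma 3.58.1 in R 4.3.3 over the 24117 genes that reached 1 RPKM in 4 or more libraries. Stage and hybrid were additive terms, with trended empirical Bayes variances and Benjamini-Hochberg adjusted p below 0.05 over all genes tested. A model of stage by hybrid groups, 2 libraries each, gave the contrast of hybrids within D1 and the hybrid difference of the D1 change. Fold changes on this scale understate those of low genes. All median shifts over the genes tested were small: 0.14 for D1 minus C, 0.07 for D2 minus C and -0.12 for D2 minus D1.

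Whole reads, library totals and coding lengths were recovered from the RPKM steps; 100% of the 321994 values above 0 were whole within 0.01 reads. Limma-voom on these reads was an alternative, as were other pseudocounts, filters, scalings and rule settings, a replicate block, and each library left out in turn. The scripts were tested on simulated data.

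Named genes were the 12 members with the largest smaller difference, the 6 with the highest D1 means, up to 3 with the largest called rise and fall from C to D2, the 4 and 3 with the smallest p for hybrid level and for the hybrid difference of the D1 change, adjacent members, and the 3 genes on each side of the threshold. Other members named, in the hybrid comparison within D1, among the changes from C to D2 and in the run on chromosome number 19, were chosen after their values were seen. The 32 gene lists, the tissue markers and the promoter motifs that had been planned could not be used, since no annotation or sequence was used here. Same-numbered replicates showed little common deviation over all genes tested: correlations of their deviations were -0.04 to 0.08. The numbers were therefore not used as pairs in the main fits. Correlations over all genes would not show a pairing that touches few genes.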

Additional observations from a re-analysis of the deposited data

Results flagged for a closer look

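In the named members, each stage's 4 libraries were searched for a single value far from the rest, by Dixon's test at its 95% level. It marked 10 of 96 groups of 4, 10.4%, where chance marks about 1 in 20 for values with a normal spread. Over all genes tested it marked 7.27% of the groups, and over those with a mean D1 of at least 5 RPKM 5.66%. In Potri.012G022400.1 the second hybrid 89 plant of D1 was far above the others of its stage, at 221.8 RPKM against a median of 12.3. The second hybrid 89 plant of D2, a different plant, was so too, at 7.45 RPKM against a median of 0.903. In Potri.001G289700.1 the second hybrid 89 plants likewise stood high in D1, at 387.6 RPKM against a median of 77.9, and in D2, at 42.8 RPKM against a median of 26.7. The second hybrid 89 plant of D1 was also the high one in Potri.019G116600.1, at 21.4 RPKM against a median of 4.63, and in Potri.019G117400.1, at 20.4 RPKM against a median of 10.9. The first hybrid 85 plant of D2 was high in Potri.004G138400.1, at 17.8 RPKM against a median of 7.78, and in Potri.019G116700.1, at 32.8 RPKM against a median of 19.6. On the low side, the first hybrid 89 plant of D1 had 449.6 RPKM of Potri.006G265400.1 against a median of 601.5. The first hybrid 89 plant of C had 0.649 RPKM of Potri.007G019600.1 against a median of 2.95.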

How the results depend on the processing

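The number of members followed the rule's settings. It was 55 with differences of at least 1.5, 186 with at least 0.8, and 348 when libraries could overlap. It was 80 with median-ratio scaling and 123 with quantile normalization, of which 96 were among the 119. Leaving out 1 library gave 120 to 179 genes, the most without replicate 2 of hybrid 85 or replicate 1 of hybrid 89 in D1. In D2 against C, 15 members were called, 9 with no filter on low values, 9 to 19 with 1 library left out, and 12 with a replicate block (1 higher, 11 lower). The share of all genes called was 40.8%, but 28.9% with no filter, 35.2% to 40.7% with 1 library left out and 37.9% with the block. The block called 0 members between hybrids (1.82% of all genes), 8 within D1 (6.38%) and 0 in the hybrid difference of the D1 change (0%). Between hybrids, limma-voom called 2 (3.97% of all genes), and leaving out 1 library gave 0 to 1 (1.43% to 3.08%). Within D1, a pseudocount of 0.1 gave 3 calls (5.48% of all genes). The calls within D1 and those for the hybrid difference of the D1 change also depended on single libraries, in fits that leave 1 plant in a group. The share of all genes called moved in those fits too. With differences of at least 1.5, 9.29% of genes chosen in hybrid 85 had both differences in hybrid 89, against 1.38% of all genes tested. With quantile normalization, 14.5% of genes chosen in hybrid 89 had both in hybrid 85, against 3.28%. The causes of these changes were not tested. The call of Potri.003G146800.1 in D2 against C was also lost with no filter, at limma adjusted p = 0.0507. The D2 against C changes of the 7 members given with that test kept their sign under every alternative run. In 12 members the lowest D1 library held fewer than 10 reads, so their levels there are imprecise.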
